A study of Mus musculus with 15 samples.

Results

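The C/EBP proteins are basic leucine zipper transcription factors. The 6 family genes described here were Cebpa, Cebpb, Cebpd, Cebpe, Cebpg and Ddit3, out of 19937 genes measured. They were chosen by name, with earlier results of these data known, as were the gene lists below. The share of all genes printed beside a count is therefore a scale and not a test. Each family gene was taken as the probe set whose only symbol in the platform annotation was that of the gene. All 6 had exactly 1 such probe set. The series holds 15 Affymetrix Mouse Gene ST arrays of sorted bone marrow progenitors from female C57BL/6 mice with mutant Cebpa, taken 3 weeks after conditional knockout and before leukaemia. It asks which genes are deregulated in cells that are prone to transform.

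There were 5 groups of 3 arrays. GMP fl/p30 were granulocyte-macrophage progenitors (GMPs) of the genotype cebpa fl/p30; Mx1Cre, GMP fl/BRM2 were GMPs of cebpa fl/BRM2; Mx1Cre, and their control, GMP fl/+, was cebpa fl/+; Mx1Cre. The group preGM fl/p30 held the more immature pre-granulocyte-macrophage progenitors (preGMs) of the same 3 cebpa fl/p30; Mx1Cre animals that gave the GMP fl/p30 arrays, and its control, preGM +/+, is labelled "cebpa +/+:Mx1Ce". The other groups came from separate animals. Each GMP group thus carried 1 floxed allele, which Cre recombinase deletes, beside 1 p30, BRM2 or normal allele, whereas the preGM control carried 2 normal alleles, so that stage and genotype vary together between the controls. The Mx1 promoter answers to interferon and is active in many tissues, and the labels do not name what induced it. The p30 allele yields the short C/EBPα isoform without the N-terminal activation domain, and BRM2 carries a changed basic region. Both gates took Lin-, Sca1-, cKit+, CD150- and CD41- cells. GMPs were FcgRII+, whereas preGMs were negative for FcgRII and Endoglin.

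All C/EBP proteins pair through a leucine zipper, and most bind DNA through the basic region beside it. The set of family members present in a cell thus fixes which dimers can form. In the marrow, C/EBPα is needed for the step that yields GMPs and starts the granulocytic programme, C/EBPε takes over in the terminal maturation of neutrophils and eosinophils, and C/EBPβ serves granulopoiesis under infection or cytokine demand. C/EBPγ lacks a typical activation domain. Both C/EBPγ and the product of Ddit3, also named CHOP, can hold other members in dimers that do not activate classical C/EBP targets.

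Values are log2 expression, and ± is the standard error of a log2 difference unless SD is written. A gene was called at a limma adjusted p under 0.05 (Benjamini-Hochberg over all 19937 genes of a comparison), from 1 fit of 5 group means over all 15 arrays. Array medians lay between 6.03 and 6.23, so that the lowest levels of Cebpb and Cebpd stood near the middle of all probe sets. Levels of different genes are not set against each other, because probe sets differ in brightness. The root mean square SD within groups was 0.269 for GMPs with p30, 0.195 for GMPs with BRM2 and 0.319 for GMP fl/+, and 0.211 and 0.165 for preGM fl/p30 and preGM +/+, and the fit gives all groups 1 shared spread per gene. Of the gate genes, Fcgr3 was higher in GMPs than in preGMs of both genotypes, by 2.35 ± 0.20 in fl/p30 cells and by 2.98 ± 0.20 between the controls, and Fcgr2b by 0.98 ± 0.30 (adjusted p = 0.172) and 1.48 ± 0.30 (adjusted p = 0.00992). Among the other gate genes, Kit, on which both gates selected, differed by 0.51 ± 0.16 in GMP fl/p30 against GMP fl/+ without overlap (adjusted p = 0.0707), and was lower in GMP fl/+ than in preGM +/+ (-0.59 ± 0.16, adjusted p = 0.0329). Fcgr2b was not called with either allele: it differed by -1.07 ± 0.30 in GMP fl/p30 (adjusted p = 0.051) and by -1.05 ± 0.30 in GMP fl/BRM2 (adjusted p = 0.0903) against GMP fl/+, without overlap. Itga2b, the gene of CD41, against which both gates selected, was 1.04 ± 0.25 higher in GMP fl/p30 (adjusted p = 0.0244), and with BRM2 it differed by 0.99 ± 0.25 (adjusted p = 0.0534). Eng, the gene of Endoglin, was lower in GMP fl/+ than in preGM +/+, although preGMs were sorted as negative for it, at means of 6.71 and 7.45 (-0.74 ± 0.14, adjusted p = 0.00639). Ptprc, the pan-leukocyte gene of CD45, was higher with p30 by 0.70 ± 0.13 (adjusted p = 0.0065) and with BRM2 by 0.58 ± 0.13 (adjusted p = 0.0355). The part of these genes in the member differences was not tested. All 5 measured T and NK cell genes averaged below the median of all gene means (6.35) in every group. Of these 5, Cd3g was called higher with p30 in GMPs (0.96 ± 0.24, adjusted p = 0.0276), where 4.69% of all genes were. The 6 measured B cell genes stood 1.75 above their mean in preGM +/+ replicate 3, against -0.48 to 0.41 in the other 14 arrays. In bulk samples, fewer cells of a type and less RNA per cell cannot be told apart.

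Cebpa, which carries the mutations, was measured by probe set 10552140. Its levels were 8.68, 9.22 and 9.31 in GMP fl/p30 and 8.59, 8.48 and 8.86 in GMP fl/BRM2, against 8.70, 8.10 and 8.34 in GMP fl/+. In preGMs they were 9.28, 8.90 and 9.10 in fl/p30 and 8.58, 8.61 and 8.53 in +/+. The fl/p30 groups of both stages held the high end, with means of 9.09 ± 0.19 (SD, n = 3) in preGMs and 9.07 ± 0.34 (SD, n = 3) in GMPs, and in that order every neighbouring pair of groups overlapped. Where the probes lie relative to the deleted and the mutated parts of the gene is not known here, so that these levels check neither the deletion nor the allele, and they say nothing about the isoform made.

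Cebpg, the gene of the zipper partner C/EBPγ, had the same groups on top. It measured 10.09, 10.20 and 9.62 in GMP fl/p30 and 9.45, 9.73 and 9.79 in GMP fl/BRM2, against 9.38, 8.77 and 9.30 in GMP fl/+. PreGM fl/p30 arrays stood at 10.19, 10.21 and 10.33, against 9.31, 9.37 and 9.44 in preGM +/+. The 9 arrays with a mutant allele all lay above the 6 control arrays, but nearly tied at the edge. The lowest mutant array, GMP fl/BRM2 replicate 1, stood at 9.4463, and the highest control array, preGM +/+ replicate 3, at 9.4425. By that margin alone GMP fl/BRM2, at a mean of 9.66 ± 0.18 (SD, n = 3), did not overlap the next group down, preGM +/+.

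Cebpa and Cebpg are neighbours on chromosome 7, on opposite strands, with starts 62.7 kb apart and 2 predicted genes between them in RefSeq (Gm45095 and Gm35611). Their promoters are shown because both genes stood highest in fl/p30 cells. RefSeq (GRCm38.p6) gave a promoter for 4 of the 6 genes, these 2, Cebpb and Ddit3. The letters are the 250 bases before the start, at chr7:35119043-35119292 (plus strand) for Cebpa and chr7:35056567-35056816 (minus strand) for Cebpg, each read on the gene's own strand, and capitals mark matches on either strand to TTGCGC and TTGCNNAA (C/EBP elements), CCAAT and TATAAA.
Cebpa: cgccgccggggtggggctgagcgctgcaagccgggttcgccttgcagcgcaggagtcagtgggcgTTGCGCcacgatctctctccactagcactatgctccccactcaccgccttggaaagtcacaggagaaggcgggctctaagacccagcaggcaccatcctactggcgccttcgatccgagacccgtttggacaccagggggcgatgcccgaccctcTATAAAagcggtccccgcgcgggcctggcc
Cebpg: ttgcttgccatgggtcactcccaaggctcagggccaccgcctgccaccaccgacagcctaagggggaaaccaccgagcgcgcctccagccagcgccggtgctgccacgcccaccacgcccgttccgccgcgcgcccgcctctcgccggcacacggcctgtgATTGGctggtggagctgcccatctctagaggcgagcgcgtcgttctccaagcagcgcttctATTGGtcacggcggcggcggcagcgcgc
In the Cebpa window, TATAAA begins 30 bases before the start and TTGCGC 185 bases before it. The Cebpg window has neither, and holds ATTGG, which is CCAAT on the opposite strand, 28 and 89 bases before the start. Of 32851 RefSeq promoters of 300 bases, TATAAA was in 13.62%, TTGCGC in 6.49%, TTGCNNAA in 10.8% and CCAAT in 37.41%, and no pair of these motifs overlapped in the windows printed. These matches are descriptions of sequence, searched for with the results in view. The 6 nearest measured genes around the pair, Kctd15, Chst8, Pepd, Slc7a10, Lrp3 and Wdr88, had 0 calls in any comparison by limma. Over all genes, 0% to 6.02% were called in a given direction of a comparison, so 0 of 6 is near the share of all genes. Pepd, a peptidase gene, came nearest in mutant GMPs, at 0.65 ± 0.23 in GMP fl/p30 against GMP fl/+ (unadjusted p = 0.0146, adjusted p = 0.128).

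Cebpb, the gene of the emergency granulopoiesis factor C/EBPβ, was measured at 6.54, 6.47 and 6.63 in GMP fl/p30 and at 6.73, 6.45 and 6.52 in GMP fl/BRM2, against 6.85, 7.11 and 6.76 in GMP fl/+. The preGM arrays gave 6.51, 6.24 and 6.31 in fl/p30 and 6.08, 6.04 and 6.42 in +/+. Control GMPs were highest and did not overlap the next group down, GMP fl/BRM2. Every other neighbouring pair overlapped, and preGM +/+ was lowest.

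For Cebpd, whose product C/EBPδ is known for acute phase and cytokine responses, the levels were 6.38, 6.66 and 7.12 in GMP fl/p30 and 7.25, 6.36 and 6.66 in GMP fl/BRM2, against 7.71, 7.96 and 7.48 in GMP fl/+. They were 5.92, 6.29 and 6.14 in preGM fl/p30, against 6.52, 6.71 and 6.43 in preGM +/+. The 3 control GMP arrays lay above the other 12, and preGM fl/p30 lay below preGM +/+ without overlap.

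Cebpe, the gene of the late granulocytic factor C/EBPε, spread most. Its levels were 7.77, 7.78 and 9.23 in GMP fl/p30 and 9.40, 7.32 and 8.04 in GMP fl/BRM2, against 9.50, 8.56 and 8.51 in GMP fl/+, whereas preGMs had 6.43, 6.41 and 7.15 in fl/p30 and 6.94, 7.31 and 6.88 in +/+. All 9 GMP arrays were above the 6 preGM arrays. The GMP groups overlapped each other over a range of 2.07 within GMP fl/BRM2 alone. The residual SD of Cebpe, 0.68, was larger than that of 99.34% of genes, against 36.85% for Cebpb and 54.69% for Ddit3.

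Ddit3, the stress-induced member, measured 8.76, 8.84 and 8.62 in GMP fl/p30 and 8.53, 8.75 and 8.65 in GMP fl/BRM2, against 8.55, 8.74 and 9.03 in GMP fl/+. In preGMs it measured 8.32, 8.55 and 8.60 in fl/p30 and 8.10, 7.58 and 7.97 in +/+. The 3 preGM +/+ arrays were the lowest of the 15 and did not overlap any other group, whereas the GMP groups overlapped each other.

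**Figure D1:**
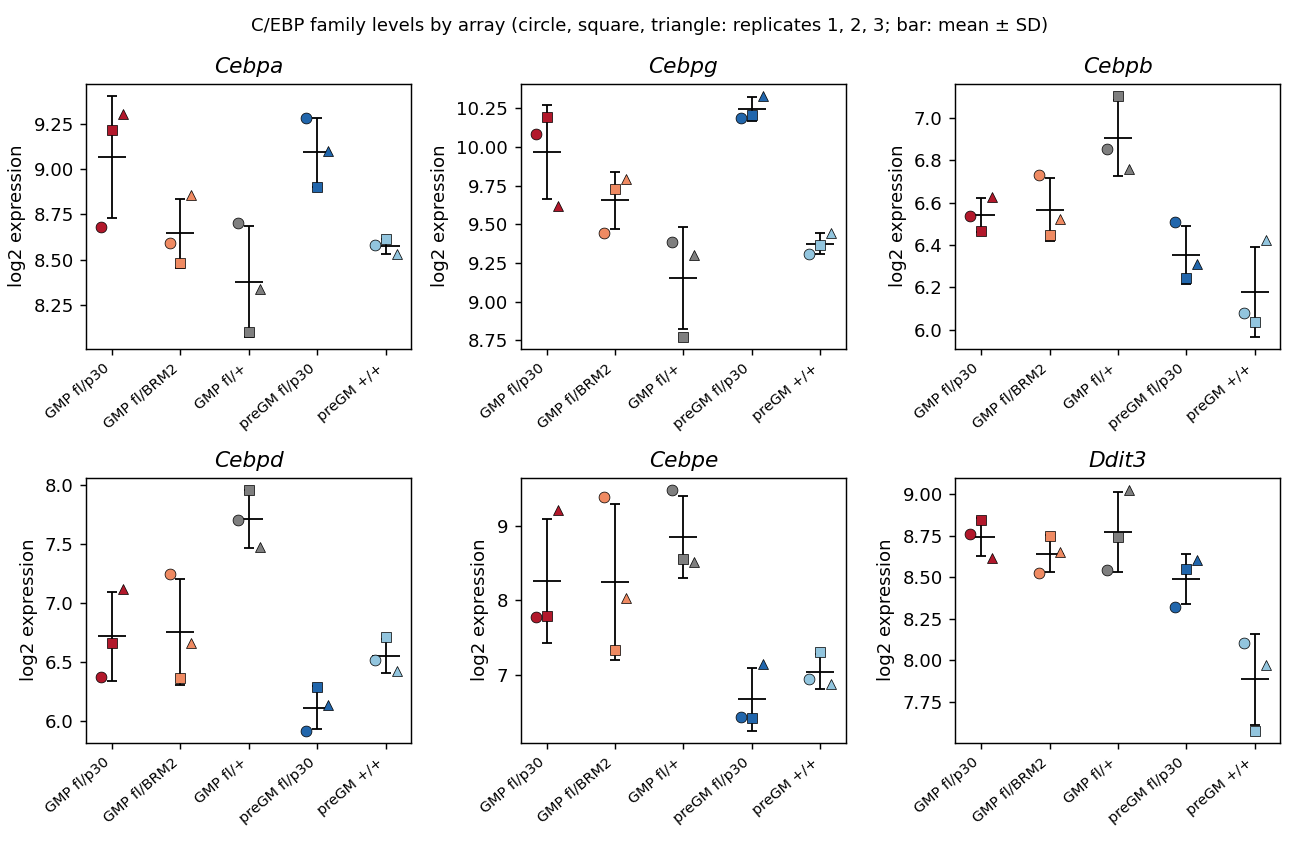
Log2 expression of the 6 family genes (vertical axes, 1 per gene) in the 5 groups, with circles, squares and triangles for replicates 1, 2 and 3 and bars for the mean ± SD of 3 arrays. Cebpa and Cebpg stand highest in the fl/p30 groups, Cebpb and Cebpd in GMP fl/+, and Ddit3 lowest in preGM +/+, where it lies between 7.58 and 8.10.

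In GMPs with the p30 allele, Cebpa and Cebpg were higher and Cebpd was lower than in GMP fl/+. Cebpg differed by 0.81 ± 0.17 (1.76-fold, adjusted p = 0.0118), Cebpa by 0.69 ± 0.18 (1.61-fold, adjusted p = 0.0367) and Cebpd by -0.99 ± 0.22 (1.99-fold lower, adjusted p = 0.0163). This made 2 of 6 members higher, where 4.69% of all genes were called higher, and 1 of 6 lower, where 1.37% were. No array of one group reached the range of the other for Cebpg and Cebpd, while for Cebpa the lowest p30 array, 8.68, lay just under the highest control array, 8.70. The median difference over the 6 members was -0.20, against -0.04 over all genes.

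The other 3 members were not called in GMP fl/p30 against GMP fl/+. Cebpb had a difference of -0.36 ± 0.13 without overlap (unadjusted p = 0.0161, adjusted p = 0.135). The interval for Cebpe was wide, with a difference of -0.60 (95% interval -1.61 to 0.42). That for Ddit3 ran from -0.36 to 0.29 around -0.03.

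The calls rested on few arrays. Without replicate 1 or 2 of GMP fl/p30, Cebpg was no longer called (up to an adjusted p of 0.0632), nor was Cebpd without either of these or without GMP fl/+ replicate 2 (up to 0.0867). Cebpa lost its call without any 1 of 8 arrays, namely GMP fl/p30 replicates 2 and 3, GMP fl/+ replicates 2 and 3, the 3 preGM +/+ arrays and preGM fl/p30 replicate 3 (adjusted p from 0.0521 to 0.15). With the 6 compared arrays fitted alone, the adjusted p was 0.273 for Cebpa, 0.12 for Cebpd and 0.19 for Cebpg.

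In GMPs with the BRM2 allele, Cebpd was lower than in GMP fl/+, with a difference of -0.96 ± 0.22 (1.94-fold lower, adjusted p = 0.0345, no overlap), against -0.99 with p30. It was the only member called: 0 of 6 were higher, where 1.89% of all genes were, and 1 of 6 lower, where 0.642% were. Cebpg differed by 0.50 ± 0.17 without overlap (unadjusted p = 0.0106, adjusted p = 0.16) and Cebpb by -0.34 ± 0.13, also without overlap (adjusted p = 0.236). Cebpa stood at 0.27 ± 0.18 (adjusted p = 0.562), with its interval from -0.12 to 0.65, Cebpe at -0.60 ± 0.48 and Ddit3 at -0.13 ± 0.15. Both mutant comparisons use the same 3 GMP fl/+ arrays, so their values are not independent.

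The call of Cebpd with BRM2 was lost without any 1 of 6 arrays, namely GMP fl/BRM2 replicates 2 and 3, GMP fl/+ replicate 2, preGM +/+ replicates 1 and 3 and preGM fl/p30 replicate 3 (adjusted p up to 0.216). It was also lost with each array centred on its median (0.0555) and with the replicate number as a block (0.0615). Cebpg gained a call without GMP fl/+ replicate 1 (adjusted p = 0.0442), where 2218 of all genes were called in place of 505.

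Set directly against each other, the mutant alleles gave 0 calls among the 6 members by limma. Over all genes, 0.00502% were called higher with p30 than with BRM2 and 0% lower. The largest member difference was that of Cebpa, 0.42 ± 0.18 higher in GMP fl/p30 (95% interval 0.04 to 0.81, unadjusted p = 0.0337, adjusted p = 1). It was 1 of 6 members under an unadjusted p of 0.05, against 688 of the 19937 genes, and with array weights its adjusted p was 0.0326. Cebpg had 0.31 ± 0.17 (interval -0.06 to 0.68), and Cebpb, Cebpd and Ddit3 had intervals of -0.31 to 0.26, -0.51 to 0.44 and -0.23 to 0.42.

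In preGMs, Cebpg was the member called: it was higher in fl/p30 than in +/+ by 0.87 ± 0.17 (1.83-fold, adjusted p = 0.0208), with a gap of 0.75 between the lowest fl/p30 and the highest +/+ array. Thus 1 of 6 members was higher, where 0.647% of all genes were, and 0 of 6 lower, where 1.03% were. Ddit3 differed by 0.60 ± 0.15 (1.52-fold, adjusted p = 0.0663) and Cebpa by 0.52 ± 0.18 (1.43-fold, adjusted p = 0.204), both without overlap and neither called. Cebpd stood at -0.44 ± 0.22 (adjusted p = 0.397, no overlap), Cebpb at 0.17 ± 0.13 and Cebpe at -0.38 ± 0.48. The 2 groups differ in the floxed allele as well as in p30, and the share of each in these values cannot be told apart.

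The preGM call of Cebpg was lost without any 1 of the 6 arrays compared (adjusted p from 0.0524 to 0.0965). Fitted on these 6 arrays alone, or with array weights, 3 members were called, Cebpa, Cebpg and Ddit3, and Ddit3 had an adjusted p of 0.0489 in the first of these and 0.0135 with weights.

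**Figure D2:**
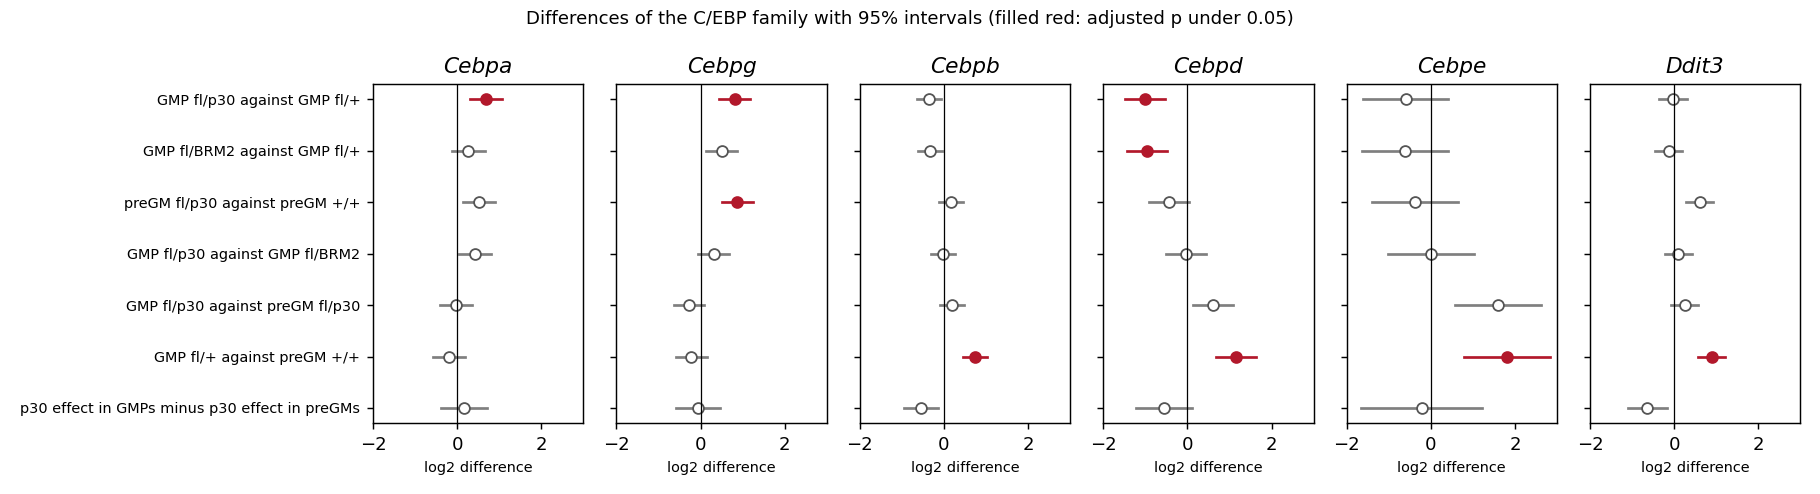
Log2 differences of the 6 genes (horizontal axes) in the 7 comparisons, with points for the estimate, lines for the 95% interval and filled red points for an adjusted p under 0.05. Cebpg lies to the right in both p30 comparisons (0.81 in GMPs and 0.87 in preGMs) and Cebpd to the left in both mutant GMP comparisons (-0.99 with p30 and -0.96 with BRM2).

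Between the controls, 4 of 6 members were higher in GMP fl/+ than in preGM +/+, and none was lower. Among all genes 4.19% were called higher and 6.02% lower. Cebpe differed most, by 1.82 ± 0.48 (3.52-fold, adjusted p = 0.0301), followed by Cebpd at 1.16 ± 0.22 (2.24-fold, adjusted p = 0.00678), Ddit3 at 0.89 ± 0.15 (1.85-fold, adjusted p = 0.0038) and Cebpb at 0.73 ± 0.13 (1.65-fold, adjusted p = 0.00531), each without overlap. Cebpa and Cebpg, the pair on chromosome 7, were not called, at -0.20 ± 0.18 and -0.22 ± 0.17, and their intervals ran from -0.58 to 0.19 and from -0.59 to 0.15. The members' median was 0.81, against 0.08 over all genes.

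Cebpb, Cebpd and Ddit3 kept this call without any 1 of the 15 arrays (adjusted p up to 0.0322, 0.0328 and 0.0192). Cebpe lost it without any 1 of the preGM +/+ arrays or without GMP fl/+ replicate 2 (up to 0.0914). The controls also differ in genotype, and stage and genotype cannot be told apart here.

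From preGM to GMP within the fl/p30 animals, 0 of 6 members were called by limma, where 0.356% of all genes were higher in GMP fl/p30 and 0.286% lower, and 2 of 6 members had an unadjusted p under 0.05, against 2475 of the 19937 genes. Cebpe had a difference of 1.60 ± 0.48 without overlap (3.03-fold, adjusted p = 0.156). The arrays are paired by animal, and with the animal as a replicate block Cebpe passed, at an adjusted p of 0.0387 over all arrays and of 0.0341 on the 6 fl/p30 arrays alone. Cebpe was higher in the GMPs of each animal, by 1.34, 1.37 and 2.08.

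Cebpd was likewise higher in the GMPs of each of the 3 animals, by 0.45, 0.37 and 0.99, and its fitted difference was 0.60 ± 0.22 (adjusted p = 0.254). Its adjusted p with array weights was 0.0493. Ddit3 had 0.44, 0.29 and 0.02 and Cebpb 0.03, 0.23 and 0.32, again above 0 in all 3 animals, and neither was called (adjusted p of 0.546 and 0.627). Cebpa moved in different directions, with -0.60 in the animal of replicate 1 against 0.32 and 0.21 in the other animals. Cebpg stood at -0.10, -0.01 and -0.71.

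**Figure D3:**
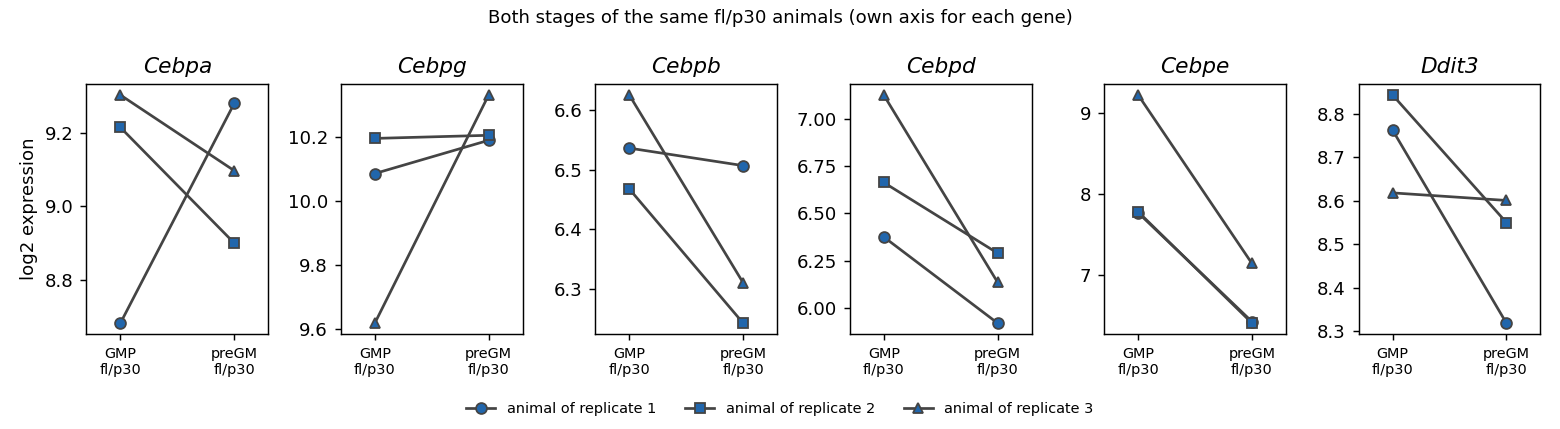
Log2 expression of each gene in GMPs (left) and preGMs (right) of the 3 fl/p30 animals, with a line joining the 2 arrays of an animal and an axis of its own for each gene. Cebpe, Cebpd, Cebpb and Ddit3 are higher in GMPs in every animal, by 1.34 to 2.08 for Cebpe, whereas the Cebpa lines cross.

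The test of whether the p30 effect differed between stages gave 0 calls among the 6 members by limma, and over all genes 0.00502% were called higher and 0% lower. The difference of the effects was -0.64 ± 0.21 for Ddit3 (unadjusted p = 0.0101, adjusted p = 0.254) and -0.54 ± 0.19 for Cebpb (unadjusted p = 0.0126, adjusted p = 0.27). These were the 2 members with an unadjusted p under 0.05, as had 2616 of the 19937 genes. Ddit3 was called without GMP fl/+ replicate 1 (adjusted p = 0.0491) and with array weights (0.0312), fits in which 1482 and 1991 of all genes were called. For Cebpg the 2 effects were 0.81 in GMPs and 0.87 in preGMs, with a difference of -0.06 (95% interval -0.57 to 0.46).

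Across the 15 arrays some members varied together. Cebpd and Cebpe had a Pearson r of 0.84, and of 0.78 once group means were taken out. Cebpa and Cebpg had an r of 0.77, which was 0.19 within groups, so that their likeness lay in the group means. Cebpd and Cebpg ran opposite ways, at -0.77 over all arrays and -0.70 within groups. These are descriptions over 15 arrays that share 5 groups, and 6 of the arrays share 3 animals.

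In both mutant GMP groups, the array highest in Cebpe and Cebpd was also the highest in neutrophil genes. GMP fl/p30 replicate 3 and GMP fl/BRM2 replicate 1 had the highest Cebpe of their groups, 9.23 and 9.40, and the highest Cebpd, 7.12 and 7.25. The 10 neutrophil genes, taken as a mean deviation from each gene's average over the arrays, stood at 0.40 and 0.49 in these 2 arrays. They stood at -0.88 and -0.68 in the other GMP fl/p30 arrays and at -0.59 and -0.22 in the other GMP fl/BRM2 arrays. Cebpg was lowest of its group in the same 2 arrays, at 9.62 and 9.45. In preGM +/+, replicate 2 was likewise highest in Cebpd (6.71), Cebpe (7.31) and the neutrophil genes (1.23). The remaining groups ran differently for Cebpd: its highest array was replicate 2 in preGM fl/p30, which had the lowest neutrophil value there (-1.09), and replicate 2 in GMP fl/+, where the neutrophil genes stood at 0.82, against 1.23 in replicate 1.

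By group, the neutrophil genes ranged from -0.88 to 0.40 in GMP fl/p30, from -0.59 to 0.49 in GMP fl/BRM2, from 0.61 to 1.23 in GMP fl/+, from -1.09 to -0.87 in preGM fl/p30 and from 0.27 to 1.23 in preGM +/+. Ltf, Mmp8, Mmp9 and Retnlg, genes of maturing neutrophils, lay on average over all arrays below the median of all gene means (6.35). The 5 monocyte genes ranged from -0.87 to 0.35 in GMP fl/p30, from -0.87 to -0.06 in GMP fl/BRM2, from 0.53 to 1.10 in GMP fl/+, from -1.13 to -0.84 in preGM fl/p30 and from 0.70 to 1.17 in preGM +/+. As list means, the 6 control arrays lay above every mutant array for the monocyte genes, and above 0 for both lists. Single genes differed. With p30 in GMPs, F13a1 had -3.02 ± 0.54 (adjusted p = 0.004) and Irf8 -1.72 ± 0.30 (adjusted p = 0.00329). Of the monocyte genes Ccr2 alone was above 0, at 0.53 ± 0.23 (adjusted p = 0.211). S100a8 had -4.24 ± 1.08 (adjusted p = 0.0328) and S100a9 -3.74 ± 0.94 (adjusted p = 0.0304). Both spread widely in GMP fl/p30, with SDs of 2.89 and 2.32, against 0.27 and 0.33 in GMP fl/+. The calls of F13a1, Irf8, S100a8 and S100a9 come from the main fit alone and were not checked with fewer arrays. Of the neutrophil genes Mmp8 alone was above 0, at 0.85 ± 0.38 (adjusted p = 0.228). The part of these lists in the member differences was not tested. In preGM +/+ the neutrophil genes were high while Cebpe stood between 6.88 and 7.31, below every GMP array.

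**Figure D4:**
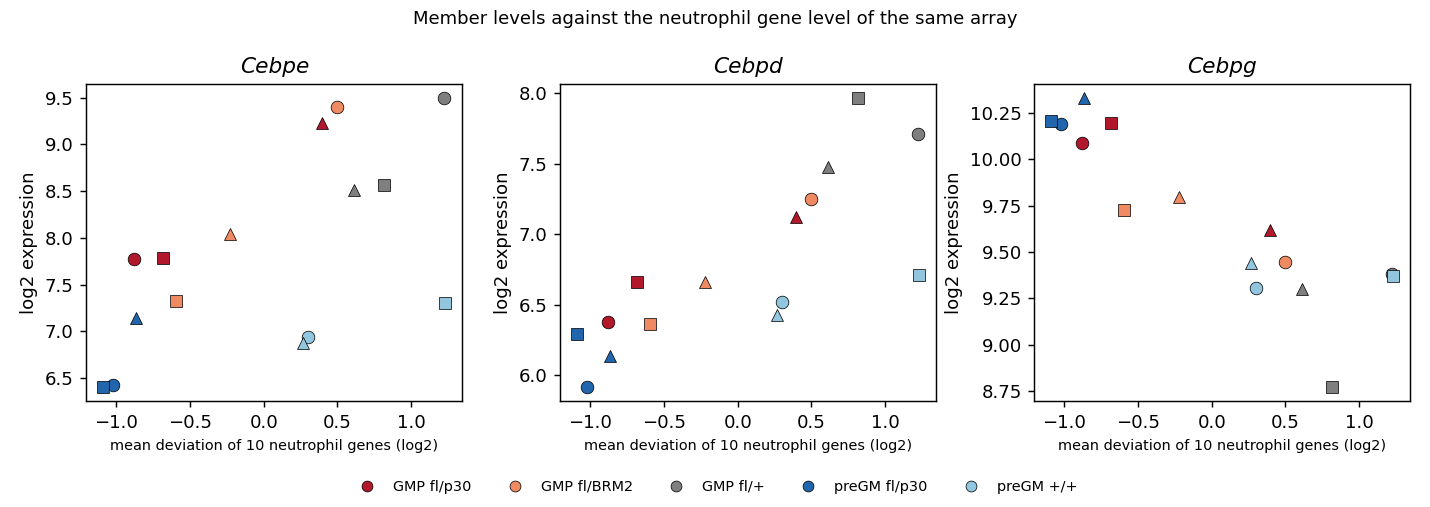
Log2 expression of Cebpe, Cebpd and Cebpg (vertical axes) against the mean log2 deviation of 10 neutrophil genes of the same array (horizontal axis), coloured by group, with circles, squares and triangles for replicates 1, 2 and 3. GMP fl/p30 replicate 3 and GMP fl/BRM2 replicate 1 lie to the right of their groups, at 0.40 and 0.49, with high Cebpe and Cebpd and low Cebpg.

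The gene lists that follow were read from the fit of all 15 arrays, and many of their calls were not made when fewer arrays were fitted. Fitted on the 6 compared arrays alone, 2 of the 16 list genes called in GMP fl/p30 against GMP fl/+ kept the call, Gfi1 and Il6. In GMP fl/BRM2 it was 3 of 10, Fcnb, Il6 and Runx1, in preGM fl/p30 all 10 of 10, between the controls 5 of 13 (Atf4, Cbfb, Fcnb, Gfi1 and Hlf), and between the fl/p30 stages 0 of 3. The adjusted p of that fit with p30 in GMPs was 0.0709 for Id2, 0.0899 for Il6st and 0.135 for Fcnb.

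Among the genes that C/EBPs are known to bind in granulocytic cells, 18 of 20 listed were measured. In GMP fl/p30 against GMP fl/+, 0 rose and 5 fell, where 1.37% of all genes were called lower, with a list median of -0.98 against -0.04 over all genes. Fcnb, the gene of the granule lectin ficolin B, measured 5.57, 6.16 and 7.77 in GMP fl/p30, against 9.52, 8.85 and 8.36 in GMP fl/+. It fell by 2.41 (SE 0.43, adjusted p = 0.00438) with p30 and by 2.82 (SE 0.43, adjusted p = 0.00324) with BRM2, where its levels were 6.43, 5.70 and 6.14. Both calls of Fcnb held without any 1 of the 15 arrays.

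Csf3r, the G-CSF receptor gene, measured 6.74, 7.43 and 8.11 in GMP fl/p30 and 7.93, 6.82 and 7.42 in GMP fl/BRM2, against 8.40, 9.19 and 8.65 in GMP fl/+. It was lower in both mutants without overlap, by -1.32 ± 0.33 (adjusted p = 0.03) and -1.35 ± 0.33 (adjusted p = 0.0461). The first call was lost without GMP fl/p30 replicate 1 or 2 or GMP fl/+ replicate 2 or 3 (adjusted p up to 0.139), and the second without any 1 of 11 arrays (up to 0.262). Camp, the cathelicidin gene, had -1.74 ± 0.43 with p30 (adjusted p = 0.0274) and -1.79 ± 0.43 with BRM2 (adjusted p = 0.0405). Camp lost the p30 call without GMP fl/p30 replicate 1 or 2 (up to 0.114) and the BRM2 call without any 1 of 8 arrays (up to 0.195). The other genes called were Il6ra in both mutants, and with p30 also the granule gene Ngp (-2.38, adjusted p = 0.0486), whose arrays overlapped. Ngp lost this call without any 1 of 10 arrays (up to 0.191), under quantile normalization (0.0527), median centring (0.0685) and eBayes with trend and robust (0.0837), and with the block by label number (0.0728). With BRM2, 0 rose and 4 fell (median -0.76, against -0.02 over all genes), where 0.642% of all genes were called lower.

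In preGM fl/p30 against preGM +/+, 0 of the 18 granulocytic genes rose and 5 fell: Il6ra, Csf1r, Ltf, Ngp and Mmp8, where 1.03% of all genes were called lower, with a median of -1.27 against 0.03 over all genes. The genes Camp, Ltf, Lcn2, Mmp8 and Ngp are in the neutrophil list as well, Csf1r is in the monocyte list, and Il6ra is in the inflammatory list below. Ngp fell by 3.39 (SE 0.66, adjusted p = 0.0202), and lost its call without preGM +/+ replicate 2 or any preGM fl/p30 array (up to 0.104). Csf1r (adjusted p = 0.0394) lost it without any 1 of 9 arrays (up to 0.159), under median centring (0.0515) and eBayes with trend and robust (0.0513), and with the block by label number (0.0693). Ltf lost it without any 1 of the preGM fl/p30 arrays (up to 0.117), and Mmp8 without replicate 3 of preGM fl/p30 or replicate 2 of preGM +/+ (up to 0.0573). Between the controls, where 4.19% of all genes were called higher and 6.02% lower, 2 of the 18 genes rose in GMP fl/+ and 1 fell. The genes that rose were Fcnb by 3.05 ± 0.43 (adjusted p = 0.00128) and Itgb2l by 0.53 ± 0.12 (adjusted p = 0.0189), and Mmp8 fell by 1.43 (SE 0.38, adjusted p = 0.0322). Itgb2l and Mmp8 each lost the call without replicate 1 or 2 of preGM +/+ and without replicate 2 or 3 of GMP fl/+ (up to 0.0743 and 0.123). Between the stages of fl/p30 animals, 0 of the 18 were called by limma and 6 had an unadjusted p under 0.05, against 2475 of the 19937 genes.

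**Figure D5:**
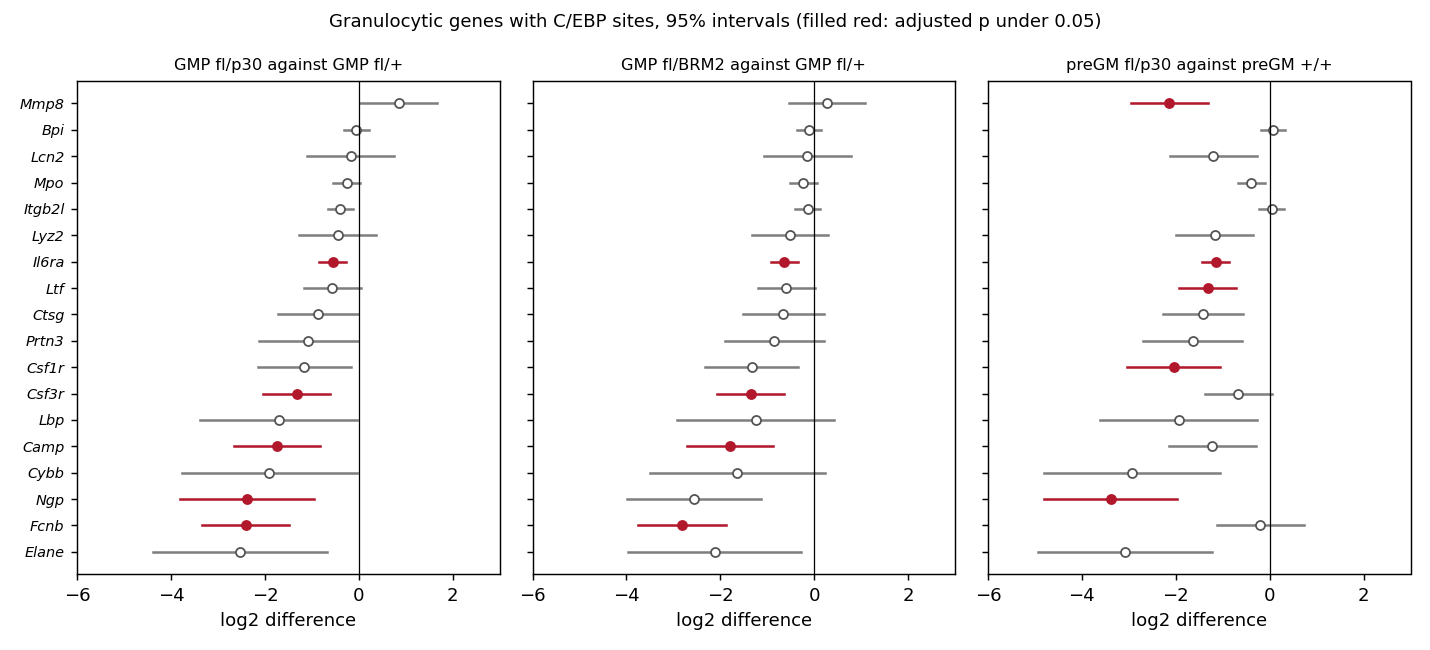
Log2 differences (horizontal axes) of the 18 measured granulocytic genes in the 3 comparisons of a mutant with its control, with lines for the 95% interval and filled red points for an adjusted p under 0.05. All called genes lie left of 0, 5 with p30 and 4 with BRM2 in GMPs and 5 with p30 in preGMs.

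Of the 18 inflammatory genes known as targets of C/EBPβ and C/EBPδ, 15 were not called in either mutant GMP comparison, and Il6 alone was called higher. Il6, the gene of the cytokine interleukin 6, measured 9.84, 8.86 and 7.89 in GMP fl/p30 and 7.94, 9.46 and 8.39 in GMP fl/BRM2, against 4.07, 4.58 and 4.94 in GMP fl/+. It was higher by 4.33 ± 0.44 (adjusted p = 6.53e-05) with p30 and by 4.07 ± 0.44 (adjusted p = 0.00023) with BRM2, and both calls held without any 1 of the 15 arrays. The control levels lay below the array medians, and how far they stood above background is not known here, so the size of the difference is uncertain. In preGMs Il6 measured 6.60, 5.94 and 6.31 in fl/p30, against 4.80, 4.50 and 4.01 in +/+, without overlap (1.85, adjusted p = 0.0534).

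The receptor genes of interleukin 6 were lower in the mutant groups. Il6st, the gene of the signalling chain gp130, measured 6.82, 7.57 and 7.78 in GMP fl/p30 and 8.22, 7.73 and 8.18 in GMP fl/BRM2, against 9.28, 10.10 and 8.68 in GMP fl/+. It fell by 1.96 (SE 0.30, adjusted p = 0.00146) with p30 and by 1.31 (SE 0.30, adjusted p = 0.0322) with BRM2, the second lost without GMP fl/BRM2 replicate 2 or 3, GMP fl/+ replicate 2 or preGM +/+ replicate 3 (up to 0.19). In preGMs it fell by 2.08 (SE 0.30, adjusted p = 0.00301), with 8.14, 8.47 and 8.12 in fl/p30 and 10.45, 10.32 and 10.21 in +/+. Il6ra, the ligand-binding chain, fell by 0.55 with p30 (SE 0.13, adjusted p = 0.0265), by 0.64 with BRM2 (SE 0.13, adjusted p = 0.0218) and by 1.14 in preGM fl/p30 (SE 0.13, adjusted p = 0.000746).

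The preGM calls of Il6st and Il6ra held without any 1 of the 15 arrays. The GMP calls of Il6ra were lost without GMP fl/+ replicate 3, without GMP fl/p30 replicate 1 or 2 (up to 0.123) and without GMP fl/BRM2 replicate 2 or 3 (up to 0.139). Of the 18 inflammatory genes, 1 rose and 2 fell in each mutant GMP group, where 4.69% and 1.37% of all genes were called higher and lower with p30, and 1.89% and 0.642% with BRM2. Il6ra is in the granulocytic list too, so its falls in GMPs and preGMs are counted in both lists. In preGM fl/p30, where 0.647% of all genes were called higher and 1.03% lower, none rose and 3 fell, the third being Hp, the gene of haptoglobin, at -4.06 ± 0.85 (adjusted p = 0.0283). Hp lost its call without any 1 of the 6 preGM arrays (up to 0.113). The list median was -0.18 with p30 and -0.17 with BRM2, against -0.04 and -0.02 over all genes, and -0.05 in preGM fl/p30, against 0.03.

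Of 19 known regulators and partners of C/EBPs, 5 rose and 1 fell in GMP fl/p30, where 4.69% of all genes were called higher and 1.37% lower. The list median was 0.07, against -0.04 over all genes. Id2, the gene of an inhibitor of helix-loop-helix factors, measured 10.45, 8.96 and 9.38 in GMP fl/p30 and 7.90, 9.19 and 8.67 in GMP fl/BRM2, against 7.81, 6.51 and 6.27 in GMP fl/+. It was higher by 2.73 ± 0.43 with p30 (adjusted p = 0.00169), in every fit that left out 1 array, and by 1.72 ± 0.43 with BRM2 (adjusted p = 0.0478), a call lost without any 1 of 10 arrays (up to 0.264). Gfi1, the gene of a repressor that works with C/EBPε in granulocytes, measured 6.40, 6.49 and 6.62 in GMP fl/p30, against 7.24, 7.31 and 7.40 in GMP fl/+. It fell by 0.82 (SE 0.17, adjusted p = 0.00932), also without any 1 of the 15 arrays, and it was higher in control GMPs than in control preGMs by 0.96 ± 0.17 (adjusted p = 0.00384).

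Runx1, the gene of a factor that binds a Cebpa enhancer, was higher by 0.94 ± 0.21 with p30 (adjusted p = 0.0162) and by 0.88 ± 0.21 with BRM2 (adjusted p = 0.0402). These calls were lost without GMP fl/p30 replicate 1 or 2 or GMP fl/+ replicate 3 (up to 0.0721) and without any 1 of 9 arrays (up to 0.223). Stat3, a cytokine signalling gene, was higher by 0.63 ± 0.13 with p30 (adjusted p = 0.0113), lost without GMP fl/p30 replicate 1 or 2 (up to 0.063). Cbfb and Gsk3b were called higher with p30 too, by 0.39 (adjusted p = 0.0397) and 0.59 (adjusted p = 0.0283). Cbfb lost the call without any 1 of 9 arrays (up to 0.132), under quantile normalization (0.0877) and eBayes with trend and robust (0.0791), and with the block by label number (0.0579). Gsk3b lost it without replicate 1 or 2 of GMP fl/p30 and without replicate 2 or 3 of GMP fl/+ (up to 0.111). Between the controls, 2 of the 19 regulators were called higher in GMP fl/+, Gfi1 and Wdr5, and 2 lower, Cbfb and Cdk4. Over all genes 4.19% were called higher and 6.02% lower. Cbfb had -0.61 (adjusted p = 0.00356) and kept this call without any 1 of the 15 arrays. Wdr5 lost its call under median centring and under eBayes with trend and robust. Cdk4 lost its call without any 1 of 5 arrays (up to 0.141), under quantile normalization and with the block by label number. Trib1, whose product drives C/EBPα to degradation, measured 5.81, 5.97 and 5.73 in preGM fl/p30, against 6.40, 6.52 and 6.23 in preGM +/+. It was the only 1 of the 19 regulators called in preGMs, where 0.647% of all genes were called higher and 1.03% lower. The list median there was -0.08, against 0.03 over all genes. Trib1 differed by -0.55 ± 0.12 (adjusted p = 0.0329), and lost the call without preGM +/+ replicate 1, 2 or 3 or preGM fl/p30 replicate 1 or 3 (up to 0.158).

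Among 21 measured leucine zipper genes outside the family, Hlf, a factor of stem and early progenitor cells, was called in 5 comparisons. It measured 6.77, 6.85 and 6.53 in GMP fl/p30 and 6.49, 6.58 and 6.86 in GMP fl/BRM2, against 7.36, 7.33 and 7.36 in GMP fl/+. PreGMs had 7.61, 8.25 and 7.74 in fl/p30 and 9.30, 8.98 and 8.83 in +/+. It was lower in preGM fl/p30 than in preGM +/+ by -1.17 ± 0.17 (adjusted p = 0.00285), and lower in GMPs than in preGMs by -1.15 ± 0.17 in fl/p30 animals (adjusted p = 0.00604) and -1.69 ± 0.17 between the controls (adjusted p = 0.000123). These 3 calls held without any 1 of the 15 arrays. Fosl2 was called lower in preGM fl/p30 than in preGM +/+ (-0.48, adjusted p = 0.019), lost without any 1 of 5 arrays. It was called higher in GMP fl/p30 than in preGM fl/p30 (0.46, adjusted p = 0.0395), lost without any 1 of 10 arrays.

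In mutant GMPs, Hlf had -0.64 ± 0.17 with p30 (adjusted p = 0.0371) and -0.71 ± 0.17 with BRM2 (adjusted p = 0.0382), with the first call lost without any 1 of 6 arrays (up to 0.0993) and the second without any 1 of 7 (up to 0.185). Nfe2, known from erythroid and megakaryocytic cells, was higher by 1.16 ± 0.25 with p30 (adjusted p = 0.0149), lost without GMP fl/p30 replicate 1 or 2 (up to 0.0698), and by 1.04 ± 0.25 with BRM2 (adjusted p = 0.0456), lost without any 1 of 11 arrays (up to 0.24). Gata1, the erythroid factor gene, was higher beside it, by 1.05 ± 0.20 (adjusted p = 0.00529) and 1.20 ± 0.20 (adjusted p = 0.0046). It was the only 1 of 4 measured erythroid genes called with either allele, where 4.69% of all genes were called higher with p30 and 1.89% with BRM2. As a mean deviation these 4 ranged from -0.04 to 0.19 in GMP fl/p30 and from 0.15 to 0.45 in GMP fl/BRM2, against -0.44 to -0.17 in GMP fl/+. The 3 megakaryocyte genes ranged from -0.09 to 0.63 and from -0.02 to 0.35 in these mutants, against -0.57 to -0.32 in GMP fl/+. The 4 mast cell and basophil genes ranged from 0.14 to 0.68 and from 0.60 to 1.04, against -0.74 to -0.0034. The mast cell and basophil genes did not move together: Cpa3 was higher with p30 by 3.09 ± 0.34 (adjusted p = 0.000128) and with BRM2 by 3.00 ± 0.34 (adjusted p = 0.000315), while Mcpt8, a basophil gene, fell with p30 by 1.23 (SE 0.20, adjusted p = 0.00202). Fcer1a and Ms4a2 were not called, at 1.79 and -0.65 with p30 and at 0.69 and 0.99 with BRM2, so that the estimates for Ms4a2 had opposite signs. Their part in the result for Nfe2 was not tested. The zipper list as a whole had 1 gene higher and 2 lower with p30, and 1 higher and 1 lower with BRM2. Atf6 was lower beside Hlf with p30 (-0.57, adjusted p = 0.0479), a call lost without any 1 of 13 arrays. Over all genes 4.69% were higher and 1.37% lower with p30, and 1.89% and 0.642% with BRM2, so 1 of 21 higher is near the share of all genes. The list medians were -0.13 and -0.08, against -0.04 and -0.02 over all genes.

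The stress response genes that accompany Ddit3 had calls between the controls. Of 24 measured, 4 rose and 1 fell in GMP fl/+ against preGM +/+, where Ddit3 was higher too and 4.19% of all genes were called higher and 6.02% lower. The list median was 0.15, against 0.08 over all genes. Slc7a11, a cystine transporter gene, rose by 0.99 ± 0.22 (adjusted p = 0.0153), Xbp1, a factor of the unfolded protein response, by 0.64 ± 0.17 (adjusted p = 0.0315), Atf4, the factor upstream of Ddit3, by 0.62 ± 0.15 (adjusted p = 0.0239) and Chac1 by 0.51 ± 0.14 (adjusted p = 0.0334). Phgdh, of serine synthesis, fell by 0.78 (SE 0.22, adjusted p = 0.0374). Slc7a11 measured 5.19, 5.98 and 5.03 in GMP fl/+, against 4.41, 4.50 and 4.32 in preGM +/+, all below the array medians. How far these levels stood above background is not known here, so the size of the difference is uncertain. Chac1 also averaged below the median of all gene means. Slc7a11 lost its call without preGM +/+ replicate 1 or 3 and the others without any 1 of 4 or 5 of the arrays compared, among them every preGM +/+ array and GMP fl/+ replicate 2. Atf4, Chac1 and Xbp1 also lost the call under median centring, and Chac1 and Phgdh under quantile normalization.

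In preGM fl/p30, where Ddit3 stood at 0.60, 0 of the 24 stress genes were called by limma, where 0.647% of all genes were called higher and 1.03% lower. An unadjusted p under 0.05 was found for 7 of the 24, against 2794 of the 19937 genes. Atf4 differed by -0.18 ± 0.15 and the list median was -0.24, against 0.03 over all genes. Atf4 measured 8.71, 8.98 and 8.59 in preGM fl/p30, against 8.95, 9.03 and 8.83 in preGM +/+, so the groups overlapped.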

How the data were processed

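The 15 Affymetrix Mouse Gene ST arrays took RNA amplified from 20 ng, per the labels' protocols. The deposited values are log2 expression, one per probe set, made with affy and RMA per the submitters' processing notes, which give no versions here. Arrays have no read depth, and the 3 arrays per group limit the precision. Of 34760 probe sets, 21640 had 1 gene symbol in the platform annotation, 1321 several, and 11799 are unnamed here. Each of 19937 genes was taken as its probe set with the highest mean, 954 of them having several, and dim probe sets were kept. RefSeq held 19855 by Entrez ID, with 0 changed symbols.

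A model of 5 group means was fitted with limma 3.58.1 (R 4.3.3) and eBayes, on 10 residual degrees of freedom plus a prior of 4.24. Benjamini-Hochberg adjustment ran within each of 7 comparisons. The code was run on simulated data with independent noise, the same spread per gene in every group and no shared animals. That run does not test the calls under the unequal spreads and shared animals of these arrays. Where nothing says that arrays of a group are separate cultures or animals beyond the animal numbers in the labels, p-values measure the spread between these samples. The fl/p30 groups share animals, and after removal of group means the arrays of an animal correlated across genes at 0.334, 0.32 and 0.116, the last below the 0.154 that the same GMP array had with another animal. Fits with that block are given where they change a call.

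The members and gene lists were chosen with earlier results of these data known. Named genes were drawn from the 6 members, up to 4 called genes per list and comparison by smallest p, or up to 2 where none was called, the 3 genes most like each member, and the measured neighbours of Cebpa and Cebpg. Not every gene and comparison that this allowed is described. Cbfb, Gsk3b, Ngp in GMPs, Csf1r and Phgdh were named beyond that, after their values were seen. So were the gate genes, Gata1, Cd3g, the mast cell and basophil genes, Atf4 in preGMs, and Ccr2 and Mmp8 with p30 in GMPs. Alternatives covered probe set choice, filtering, scaling, moderation, array weights, blocks, the arrays fitted, each array left out and a size threshold. They were run for the members and for the list genes called in the main fit. Genes named only as markers of cell types or gates, as neighbours or as most like a member were not checked under them.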

Additional observations from a re-analysis of the deposited data

How the results depend on the processing

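The number of members called, with 3 against GMP fl/+ in GMP fl/p30, 1 in GMP fl/BRM2, 1 in preGM fl/p30 against preGM +/+ and 4 between the controls, depended on the fit. Fitting only the arrays compared gave 0 with p30 in GMPs, 0 with BRM2 and 3 in preGMs. Requiring an absolute log2 difference of at least 1 gave 0, 0 and 0 for the mutants and 2 between the controls. Array weights gave 3 in preGMs, and 1 where there had been 0 between the alleles (Cebpa), between the fl/p30 stages (Cebpd) and for stage dependence (Ddit3). Quantile normalization gave 2 in preGMs. With BRM2, median centring gave 0 and the replicate block by label number gave 0. The paired fits with the animal as a replicate block gave 1 between the fl/p30 stages, by both routes, and the replicate block changed no other member call. Leaving out 1 array gave 0 to 3 with p30 in GMPs, 0 to 2 with BRM2, 0 to 2 in preGMs, 3 to 4 between the controls and 0 to 1 for stage dependence. Signs turned only in values near 0 that were never called: Ddit3 with p30 in GMPs under centring (0.036, range without 1 array -0.14 to 0.10), Cebpb between the alleles under quantile normalization and centring (0.012 and 0.025, -0.084 to 0.058), Cebpd there under centring and weights (0.013 and 0.0040, -0.24 to 0.21), Cebpe there under quantile normalization and weights (-0.0093 and -0.17, -0.48 to 0.58), Cebpa between the fl/p30 stages under quantile normalization, centring and weights (0.0090, 0.017 and 0.14, -0.14 to 0.17), Cebpe for stage dependence (-0.70 to 0.10) and Cebpg there under centring (0.069, -0.25 to 0.12). Over all genes, fitting only the arrays compared called 172 in place of 1209 with p30 in GMPs, 131 in place of 505 with BRM2, 1070 in place of 334 in preGMs, 746 in place of 2036 between the controls and 29 in place of 128 between the fl/p30 stages. Array weights called 4063, 2187, 1167, 4660 and 1948 in these comparisons, and 283 between the alleles and 1991 for stage dependence, each in place of 1. The random animal block called 681 between the fl/p30 stages and 76 for stage dependence, and median centring called 29 for stage dependence. The animal block on the 6 fl/p30 arrays alone called 71. Between the alleles the other fits on all arrays or on the compared arrays called 0 to 2 genes, and for stage dependence 0 to 4. Leaving out 1 array called 537 to 3078 genes with p30 in GMPs, 134 to 2218 with BRM2, 101 to 471 in preGMs, 636 to 4686 between the controls, 26 to 249 between the fl/p30 stages, 0 to 12 between the alleles and 0 to 1482 for stage dependence. Without GMP fl/+ replicate 1 the counts were the highest of these in 6 comparisons, at 3078, 2218, 471, 4686, 249 and 1482. Stage dependence had 117 genes without GMP fl/p30 replicate 3 and 15 when GMP fl/BRM2 replicate 1 was left out, and the alleles differed in 12 without GMP fl/p30 replicate 3. Of the 10 list genes called with BRM2, 4 kept the call under median centring and 5 with the block by label number. The cause of these changes was not tested.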

Other observations

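The genes whose levels ran most like each member over the 15 arrays were sought among 9588 genes above the median of all gene means. Arrays of a group and animals are shared among these points, so the r values describe this set of arrays. These genes were picked for running like a member, so their group differences and calls follow in part from that choice. They are no separate support for the member's differences. Once group means were taken out, r was lowest for Adcy4 (0.42) and Tmf1 (0.54). Cebpe ran with Wfdc21 (r = 0.96), Sema4a (0.96) and Prg3 (0.94), the last an eosinophil granule gene, and r stayed at 0.92, 0.87 and 0.87 once group means were taken out. Prg3 averaged 7.56 in GMP fl/p30 and 7.46 in GMP fl/BRM2, against 8.82 in GMP fl/+, and 6.02 in preGM fl/p30 against 6.29 in preGM +/+. It was higher in GMP fl/+ than in preGM +/+ by 2.53 ± 0.55 (adjusted p = 0.0129).

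Cebpg ran with the inflammasome sensor gene Nlrc4 (r = 0.94), the C-type lectin gene Clec4e (0.94) and Pank1 (0.93), of coenzyme A synthesis. Clec4e averaged 9.40 in GMP fl/p30 and 9.36 in GMP fl/BRM2, against 7.14 in GMP fl/+, and 10.31 in preGM fl/p30 against 8.28 in preGM +/+. It was called higher with p30 in GMPs (2.27 ± 0.44, adjusted p = 0.00742), with BRM2 (2.22 ± 0.44, adjusted p = 0.0161) and with p30 in preGMs (2.03 ± 0.44, adjusted p = 0.0336). Nlrc4 was called in GMPs and preGMs with p30, by 0.82 ± 0.20 (adjusted p = 0.0249) and 1.13 ± 0.20 (adjusted p = 0.00978).

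Cebpd ran with Slc8b1 (r = 0.97), Ly6a2 (0.95) and the glutathione reductase gene Gsr (0.95). Slc8b1 was lower with p30 in GMPs by -1.23 ± 0.25 (adjusted p = 0.00933) and with BRM2 by -1.02 ± 0.25 (adjusted p = 0.0462). Cebpb ran with the sialidase gene Neu1 (0.95), Rybp (0.91) and Dmkn (0.90), Ddit3 with Arhgap4 (0.94), Tspyl2 (0.88) and Adcy4 (0.87), and Cebpa, at lower values, with Armcx3 (0.89), Tmf1 (0.86) and Fgfr1op2 (0.86).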
